A study of Zea mays with 48 samples.

Results

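The 150 maize genes described here were abundant in the young embryo and low by 13 days after pollination (DAP). They are 150 of 39656 gene models measured, and 34826 of the models had at least 1 read. They were chosen by their measured levels, given as counts scaled to the library total (CPM) and averaged over the 6 libraries of a sample kind. A gene had to average at least 5 CPM in embryos cut out by laser microdissection (LCM) at 5 DAP and at least 10 CPM in manual embryos, dissected by hand, at 5 DAP. Its endosperm mean had to stay under 25% of its mean in manual embryos at 5 DAP. The 1197 genes that met these conditions were ranked by the mean at 5 DAP over the mean at 13 DAP plus 0.5 CPM, and the 150 with the highest ratio were kept. The rule set aside 3 genes, lec1, esr1 and RR3, before ranking. Contrasts between the sample kinds that the rule set against each other are therefore given as a description without a test. The crosses were averaged in the rule, so MB and BM were compared with a test, but in LCM and manual embryos at 5 DAP and in manual embryos at 13 DAP their libraries entered the means that chose the genes.

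The libraries came from hybrid kernels of the maize inbreds B73 and Mo17, crossed in both directions. MB kernels had Mo17 as seed parent and B73 as pollen parent, and BM kernels had B73 as seed parent and Mo17 as pollen parent. For each cross there were LCM embryos at 3 and 5 DAP, manual embryos at 5, 7, 9, 11 and 13 DAP, and endosperm at 5 DAP, with 3 libraries in each of the 16 groups. The labels call the 3 libraries biological replicates, and each was a pool of many embryos taken from at least 3 ears. How the endosperm was taken is not given in the sources used here.

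A maize zygote divides into a small proembryo, in which an embryo proper and a suspensor become distinct before the shoot meristem and the scutellum form. The youngest embryo lies in a cavity lined by a specialised domain of the endosperm, the embryo-surrounding region, which secretes small proteins such as the CLE-type ESR peptides. Both tissues touch at these stages.

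The names and levels go against reading the 150 genes as genes of the embryo proper alone. Only 17 of them have an informative name in the names table of the B73 reference, 68 have an entry and 82 have none. Of the 17, ESR3 (GRMZM2G140302) and esr6 (GRMZM2G048353) are genes of the embryo-surrounding endosperm, and ae1 (GRMZM2G039942) and ae3 (GRMZM2G372553) were described from microspore-derived embryos and are expressed in young endosperm. wox9B (GRMZM2G031882), a WUSCHEL-related homeobox gene, was the only member among the 10 embryo markers examined. A summed level of 5 markers of the embryo-surrounding region (esr1, esr2, ESR3, ebe1 and ebe2) averaged 2471 CPM in LCM embryos at 3 DAP, 8811 CPM in LCM embryos at 5 DAP and 5610 CPM in manual embryos at 5 DAP. In manual embryos it was then 1015, 551, 397 and 206 CPM at 7, 9, 11 and 13 DAP, against 167 CPM in endosperm. Within that sum the peptide genes esr1, esr2 and ESR3 were high in embryo libraries, whereas ebe1 averaged 8.47 CPM and ebe2 41.9 CPM in manual embryos at 5 DAP. The 10 embryo markers summed to 881 and 1175 CPM in LCM embryos at 3 and 5 DAP and to 438, 345, 172, 131 and 97.9 CPM in manual embryos from 5 to 13 DAP, against 205 CPM in endosperm. Most of the LCM sums was lec1, with 531 and 922 CPM, and most of the endosperm sum was ocl4, with 157 CPM. kn1 ran otherwise, with 2.08 CPM in LCM embryos at 5 DAP and 39.1 and 73.5 CPM in manual embryos at 5 and 7 DAP. The 13 markers of the endosperm transfer layer summed to 55.8 and 10.1 CPM in LCM embryos at 3 and 5 DAP and to 2510 CPM in manual embryos at 5 DAP. The 5 markers of ovule, nucellus and seed coat summed to at most 21 CPM on average in any kind. The genes are called here the falling genes, after the rule. In these bulk libraries fewer cells of a type and less RNA per cell cannot be told apart.

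Total counts per library ran from 7130090 to 21698127. Replicates of a group correlated across genes at 0.976 or above, except for LCM embryos at 3 DAP, where the lowest correlation was 0.921 in MB and 0.909 in BM and MB replicate 1 and BM replicate 3 stood apart. No 2 libraries held identical counts.

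At the youngest stage the falling genes made up a large part of the messenger RNA sequenced. They held 13.5 ± 3.08% of all counts in LCM embryos at 3 DAP and 14.1 ± 4.33% at 5 DAP (SD, n = 6 each). Manual embryos at 5, 7 and 9 DAP had shares of 2.90 ± 1.26%, 0.526 ± 0.217% and 0.101 ± 0.032%, and those at 11 and 13 DAP had shares of 0.061 ± 0.0315% and 0.0365 ± 0.0214% (SD, n = 6 each). Endosperm at 5 DAP gave 0.0669 ± 0.034%. Without the 2 LCM libraries at 3 DAP that stood apart, the share at that stage was 13.0% over 4 libraries. A few genes carried most of it: the 5 most abundant held 60.0% of the summed level in LCM embryos at 3 DAP and 55.6% at 5 DAP. The like share for the 5 most abundant in manual embryos at 5 DAP was 38.9%. By FPKM, which allows for gene length, 8 of the 10 most abundant transcripts in LCM embryos at 3 DAP were falling genes, as were 9 of 10 in LCM embryos at 5 DAP. Of the top 10 in manual embryos of that age 7 were. At 7 DAP 2 of the top 10 were, and at 9 DAP and later none of the top 100.

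**Figure D1:**
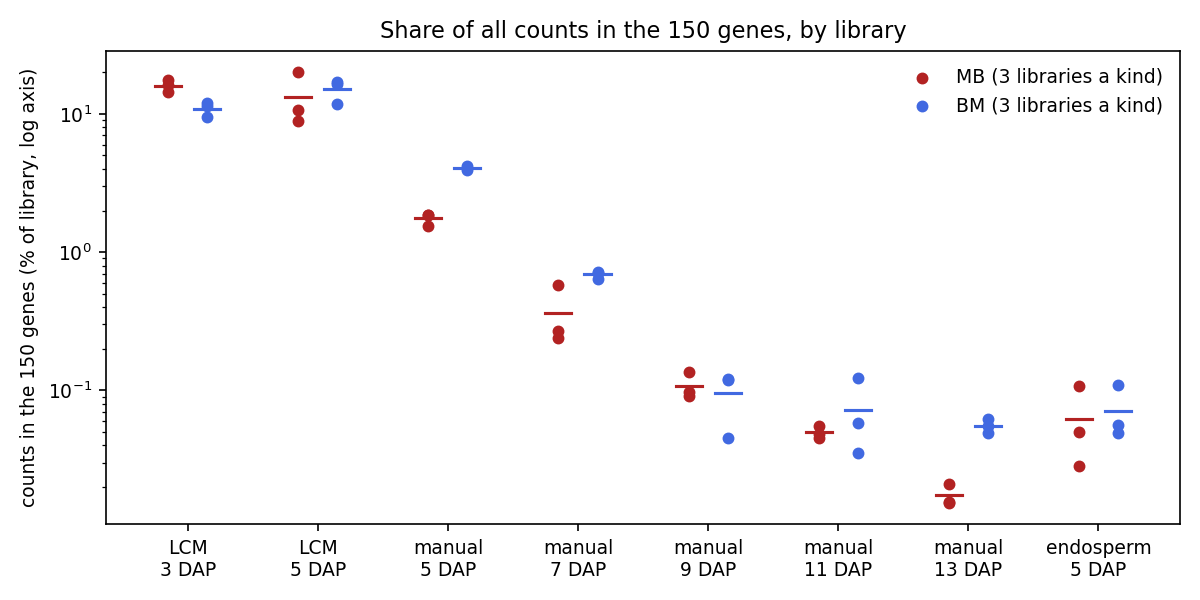
Share of all counts held by the 150 falling genes in each library (log axis, %), by sample kind, with MB libraries in red left of BM libraries in blue and a bar at the mean of 3 libraries. LCM embryos sit between 8.83 and 19.99%, manual embryos at 5 DAP between 1.55 and 4.17%, and manual embryos at 13 DAP between 0.0154 and 0.0621%.

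The most abundant genes of the set carry no name. GRMZM2G376674 had 11300, 17410 and 27190 CPM (lowest, median and highest of 6 libraries) in LCM embryos at 3 DAP and 19760, 26290 and 31540 CPM in LCM embryos at 5 DAP. Its median in manual embryos was 3826 CPM at 5 DAP, 1006 CPM at 7 DAP, 114 CPM at 9 DAP, 30.4 CPM at 11 DAP and 22.3 CPM at 13 DAP, and in endosperm it was 9.30 CPM. The libraries of successive ages from 5 to 9 DAP did not overlap. By FPKM it was the highest falling gene in LCM embryos at 5 DAP, with a median of 45790 FPKM (34610 to 53780 FPKM). GRMZM2G466848 followed with 43330 FPKM (27060 to 51280 FPKM), and the libraries of the 2 genes overlapped.

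GRMZM2G466848 and GRMZM2G466856 were of similar abundance. GRMZM2G466848 had medians of 13520 and 14860 CPM in LCM embryos at 3 and 5 DAP and of 1547, 350, 29.0, 9.19 and 6.05 CPM in manual embryos from 5 to 13 DAP. GRMZM2G466856 had medians of 16090 and 12520 CPM in LCM embryos at 3 and 5 DAP and of 1919, 381, 37.8, 9.34 and 8.18 CPM in manual embryos from 5 to 13 DAP. Their levels followed each other closely in every sample kind, and whether the genes share sequence, and so reads, was not checked.

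GRMZM2G075386 had medians of 13640 and 15920 CPM in LCM embryos at 3 and 5 DAP and of 2553, 470, 27.6, 7.23 and 5.42 CPM in manual embryos from 5 to 13 DAP. Endosperm libraries ranged from 0.0913 to 6.11 CPM for this gene, all under the lowest manual library at 5 DAP, 1737 CPM.

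The highest rank by the rule belonged to GRMZM2G006601, with a ratio of 475, followed by GRMZM2G025133 at 436 and GRMZM2G000679 at 399. GRMZM2G006601 averaged 6733 CPM in LCM embryos at 3 DAP, 3045 CPM in LCM embryos at 5 DAP, 363 CPM in manual embryos at 5 DAP and 0.266 CPM at 13 DAP. GRMZM2G000679 averaged 3637 and 7154 CPM in LCM embryos at 3 and 5 DAP and 279 CPM in manual embryos at 5 DAP. GRMZM2G025133 was unlike both in that its LCM means, 421 CPM at 3 DAP and 725 CPM at 5 DAP, were close to its manual mean of 590 CPM at 5 DAP. None of the 3 has an entry in the names table.

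The set was not uniform in how early its genes were high. Relative to LCM embryos at 3 DAP, the mean in LCM embryos at 5 DAP was higher for 93 genes and lower for 57, with a median log2 ratio of 0.50 and a range of −3.31 to 4.04. Without the 2 libraries that stood apart these numbers were 91 and 59, with a median of 0.48. GRMZM2G311036 had no read in any of the 6 LCM libraries at 3 DAP, which allows up to 0.0417 CPM. It then had 1.63, 3.84 and 17.2 CPM (lowest, median and highest) in LCM embryos at 5 DAP and 18.6, 24.4 and 28.6 CPM in manual embryos at 5 DAP.

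Levels also differed with the collection at the same age. LCM embryos at 5 DAP had a higher mean than manual embryos at 5 DAP for 91 genes and a lower one for 59, with a median log2 ratio of 0.63. The ratio ran from −3.35 to 5.35, and 39 genes were over 4 times higher in LCM embryos. ae3 (GRMZM2G372553) was among these, with 137, 216 and 1070 CPM (lowest, median and highest) in LCM embryos and 3.82, 12.5 and 24.4 CPM in manual embryos. In2-1 (GRMZM2G042639) went the other way, with 5.08, 10.9 and 29.5 CPM in LCM embryos and 108, 140 and 177 CPM in manual embryos. The 2 collections did not overlap for either gene.

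In endosperm the falling genes were low by selection. Their median level there was 1.66% of that in manual embryos at 5 DAP, 78 averaged under 1 CPM, 17 averaged 10 CPM or more and 9 had no read, which allows up to 0.0469 CPM. The highest share kept was 24.2%.

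The named members included a few transcription factors and signalling genes. Of the families counted by gene symbol, the members held 1 of 29 meristem and embryo patterning genes (wox9B, also 1 of 38 homeobox and YABBY genes), 1 of 66 MYB genes, 1 of 46 MADS genes and 1 of 36 cytokinin genes. They held none of 59 auxin genes, 46 bHLH genes, 37 AP2/ERF genes, 28 NAC genes, 27 cell cycle and replication genes and 40 histone and chromatin genes. These counts cover genes with a symbol only, and 82 of the 150 falling genes had no entry to compare. As only 150 of 39656 gene models are in the set, counts of 0 or 1 in lists this short are too small to be read either way.

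wox9B (GRMZM2G031882) had much the same level in all 3 of the youngest kinds. Its lowest, median and highest values were 65.8, 87.9 and 156 CPM in LCM embryos at 3 DAP, 67.8, 92.0 and 120 CPM in LCM embryos at 5 DAP and 75.3, 94.0 and 132 CPM in manual embryos at 5 DAP. Its median was then 30.4 CPM at 7 DAP, 10.6 CPM at 9 DAP, 7.93 CPM at 11 DAP and 3.55 CPM at 13 DAP, against 0.232 CPM in endosperm. The libraries at 7 DAP, 19.0 to 32.7 CPM, did not overlap those at 9 DAP, 7.84 to 16.6 CPM.

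TERT (GRMZM2G167338), the catalytic subunit of telomerase, had medians of 118 and 197 CPM in LCM embryos at 3 and 5 DAP. In manual embryos its lowest, median and highest values were 141, 217 and 332 CPM at 5 DAP, 44.3, 52.5 and 64.9 CPM at 7 DAP, 21.5, 24.8 and 27.4 CPM at 9 DAP, 6.42, 9.86 and 16.7 CPM at 11 DAP and 8.73, 10.9 and 14.3 CPM at 13 DAP. No library overlapped those of the next age up to 11 DAP, and those at 11 and 13 DAP overlapped.

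Myb36 (GRMZM2G056407), a MYB transcription factor, was low in LCM embryos, with medians of 5.13 CPM at 3 DAP and 16.9 CPM at 5 DAP. Manual embryos had 43.9, 60.3 and 77.9 CPM (lowest, median and highest) at 5 DAP, 33.2, 39.5 and 53.9 CPM at 7 DAP and 2.72, 3.42 and 5.72 CPM at 9 DAP. Its levels at 5 and 7 DAP overlapped and those at 7 and 9 DAP lay far apart.

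crr2 (GRMZM2G392101), a cytokinin response regulator, had 8.69, 10.6 and 16.7 CPM (lowest, median and highest) in manual embryos at 5 DAP, 3.22, 6.09 and 7.89 CPM at 7 DAP and 0, 0.171 and 0.786 CPM at 9 DAP. MADS67 (GRMZM2G147716), a MADS-box transcription factor, had 14.5, 17.2 and 23.3 CPM at 5 DAP, 1.88, 6.54 and 8.64 CPM at 7 DAP and 1.16, 1.95 and 2.64 CPM at 9 DAP. The libraries at 7 and 9 DAP did not overlap for crr2 and did for MADS67.

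Genes of metabolism, transport and defence among the named members differed in when they left the embryo libraries. pht7 (GRMZM2G112377), a phosphate transporter, had medians of 452 and 280 CPM in LCM embryos at 3 and 5 DAP and of 80.9, 8.40 and 0.197 CPM in manual embryos at 5, 7 and 9 DAP. In endosperm it had 7.95, 12.6 and 18.6 CPM (lowest, median and highest), above its level in manual embryos at 9 DAP. gst23 (GRMZM2G416632), a glutathione transferase, had medians of 239, 62.3 and 4.50 CPM in manual embryos at 5, 7 and 9 DAP, and In2-1 (GRMZM2G042639), a safener-induced protein related to glutathione transferases, had 140, 45.6 and 2.16 CPM.

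asn3 (GRMZM2G053669), an asparagine synthetase, had 11.4, 17.7 and 23.7 CPM (lowest, median and highest) at 5 DAP, 3.83, 10.9 and 30.6 CPM at 7 DAP and 0.302, 0.444 and 0.705 CPM at 9 DAP. Its levels at 5 and 7 DAP overlapped, and every library at 9 DAP lay below every library at 7 DAP. an2 (GRMZM2G044481), an ent-copalyl diphosphate synthase of terpenoid defence compounds, had medians of 32.7, 6.74 and 0.980 CPM at 5, 7 and 9 DAP. PR10 (GRMZM2G112524), a pathogenesis-related protein, had medians of 35.1, 11.2 and 1.12 CPM at these ages.

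2 named members are genes of the cell wall. HRGP (GRMZM2G168651), a hydroxyproline-rich glycoprotein of the wall, had 877, 1237 and 1388 CPM (lowest, median and highest) in manual embryos at 5 DAP, 272, 499 and 709 CPM at 7 DAP, 53.1, 86.1 and 182 CPM at 9 DAP, 42.1, 54.8 and 138 CPM at 11 DAP and 47.0, 62.2 and 91.0 CPM at 13 DAP. It was the falling gene with the highest mean at 13 DAP, 65.7 CPM, and its levels from 9 to 13 DAP overlapped. Cel20 (GRMZM2G453565), listed as a cellulase, had medians of 245, 72.3, 19.8, 12.6 and 5.99 CPM in manual embryos from 5 to 13 DAP.

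The genes of the embryo-surrounding endosperm varied widely between libraries. ESR3 (GRMZM2G140302), a CLE-type peptide gene, had 150, 600.5 and 3121 CPM (lowest, median and highest) in LCM embryos at 5 DAP, 445, 1410 and 2502 CPM in manual embryos at 5 DAP, 74.1, 223 and 538 CPM at 7 DAP, 12.3, 116 and 177 CPM at 9 DAP, 20.6, 42.2 and 104 CPM at 11 DAP and 1.80, 16.4 and 54.5 CPM at 13 DAP. esr6 (GRMZM2G048353), a defensin-like secreted protein, had medians of 1200 and 1095 CPM in LCM embryos at 3 and 5 DAP and of 415, 103, 46.7, 32.7 and 14.2 CPM in manual embryos from 5 to 13 DAP. For both genes the libraries at 9 and 11 DAP overlapped those at 13 DAP.

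Across the manual series the larger falls, on a scale with 0.5 CPM added, came early. The median log2 ratio of the means (plus 0.5 CPM) was −2.52 for 7 over 5 DAP, −2.02 for 9 over 7 DAP, −0.39 for 11 over 9 DAP and −0.41 for 13 over 11 DAP. All genes with a read had medians between −0.03 and 0.01 for these steps. The largest step down was 7 over 5 DAP for 95 genes and 9 over 7 DAP for 55, and for none of them a later one. The rule ranked on the mean at 5 DAP, which favours a large first step. The median gene was at 1.18 CPM by 9 DAP, so the added 0.5 CPM shrinks the later steps. Means at successive ages were lower each time for 111 genes. The number of genes under 1 CPM was 12, 66, 80 and 101 on days 7, 9, 11 and 13, and 10 genes still averaged 10 CPM or more at 13 DAP.

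**Figure D2:**
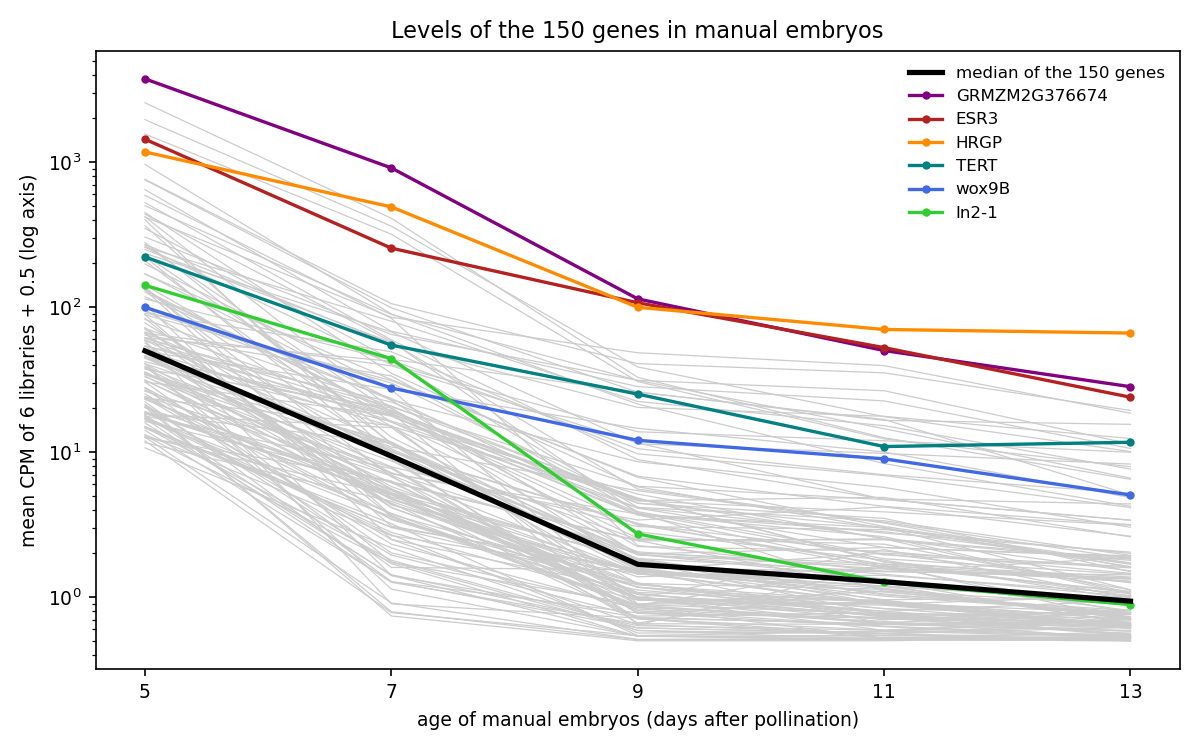
Mean level of each falling gene over 6 libraries (CPM + 0.5, log axis) against the age of the manual embryos, in grey, with 6 genes in colour and the median of the 150 genes in black. The median level was 49.4 CPM at 5 DAP, 8.89 CPM at 7 DAP, 1.18 CPM at 9 DAP, 0.776 CPM at 11 DAP and 0.438 CPM at 13 DAP, and HRGP was the highest gene at 13 DAP with 65.7 CPM.

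Between 9 and 7 DAP, ages that the rule did not use, most of the falling genes fell. Of the 144 with enough counts to be tested, 124 were lower at 9 DAP and none higher at an edgeR adjusted p under 0.05, beside 20% of all 22316 genes tested that were lower and 19.1% that were higher. The median log2 fold change was −2.52, against 0.00 over all genes tested. Because the genes were picked as high at 5 DAP and low at 13 DAP, they had to fall somewhere between, so their direction at this step is not independent of the choice. The 144 passed the filter on low counts largely by their level at 7 DAP, and the others were too low at both ages.

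The sharpest falls at this step were in genes without a name. GRMZM2G416965 had 0.147, 0.226 and 0.0527 CPM in MB and 0.128, 0.236 and 0.065 CPM in BM embryos at 9 DAP, against 5.29, 4.63 and 6.71 CPM in MB and 28.9, 34.1 and 29.8 CPM in BM embryos at 7 DAP. Every library at 9 DAP lay far below every library at 7 DAP, and the log2 fold change was −6.86 ± 0.32 (SE; edgeR adjusted p = 4.62e-09). GRMZM2G301089 (−6.07 ± 0.46), GRMZM2G136970 (−5.71 ± 0.57), GRMZM2G025133 (−5.40 ± 0.46) and GRMZM2G328205 (−5.40 ± 0.46) followed.

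Among the named regulators, the log2 fold change was −3.48 ± 0.15 for Myb36 (GRMZM2G056407; edgeR adjusted p = 2.11e-09) and −4.45 ± 0.44 for crr2 (GRMZM2G392101; adjusted p = 3.73e-06). It was −1.21 ± 0.17 for wox9B (GRMZM2G031882; adjusted p = 9.02e-05), −1.11 ± 0.09 for TERT (GRMZM2G167338; adjusted p = 4.85e-07) and −1.49 ± 0.38 for MADS67 (GRMZM2G147716; adjusted p = 0.00667). Each was lower at 9 than at 7 DAP in the mean of both crosses.

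Metabolic and transport genes had log2 fold changes of −4.70 ± 0.41 (pht7, GRMZM2G112377), −4.575 ± 0.43 (asn3, GRMZM2G053669), −4.26 ± 0.35 (In2-1, GRMZM2G042639) and −3.44 ± 0.28 (gst23, GRMZM2G416632). Those of the defence genes PR10 (GRMZM2G112524) and an2 (GRMZM2G044481) were −3.22 ± 0.32 and −2.67 ± 0.23. Those of the wall genes HRGP (GRMZM2G168651) and Cel20 (GRMZM2G453565) were −2.21 ± 0.34 and −1.81 ± 0.28. All 8 had an adjusted p under 0.05 in edgeR's test, the largest being 0.000581 for HRGP.

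The 4 endosperm-associated members were among the 20 tested genes that did not pass. ESR3 (GRMZM2G140302) changed by −1.39 ± 0.71 (edgeR adjusted p = 0.154), esr6 (GRMZM2G048353) by −0.73 (adjusted p = 0.335), ae1 (GRMZM2G039942) by −1.48 (adjusted p = 0.082) and ae3 (GRMZM2G372553) by −1.53 (adjusted p = 0.133). ESR3 had 137, 159 and 177 CPM in MB and 12.3, 95.2 and 59.9 CPM in BM embryos at 9 DAP, against 74.1, 76.5 and 538 CPM in MB and 261, 185 and 392 CPM in BM embryos at 7 DAP. In MB the libraries at 9 DAP lay above replicates 1 and 2 and below replicate 3 at 7 DAP, and in BM all libraries at 9 DAP lay below all at 7 DAP. Missing the threshold does not show that these genes were level between the ages.

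**Figure D3:**
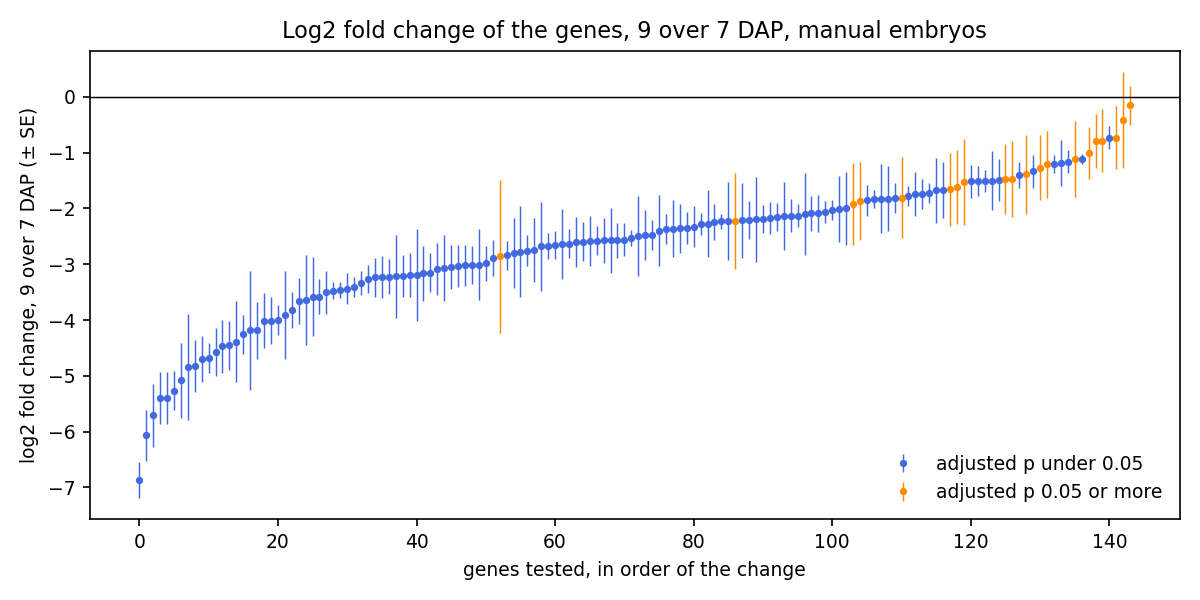
Log2 fold change of 9 over 7 DAP with its SE for the 144 falling genes tested, ordered by size, in blue where the edgeR adjusted p was under 0.05 and in orange where it was not. All 144 values lie under 0, from −6.86 for GRMZM2G416965 upwards, and the 20 orange genes sit mostly in the upper part.

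Fewer of the falling genes were called between 11 and 9 DAP. Of 107 tested, 22 were lower at 11 DAP and none higher, beside 13.1% of 21990 genes tested that were lower and 12.9% that were higher. The median log2 fold change was −0.73, against 0.03 over all genes. As at the step before, low genes passed the filter on low counts by their level at the earlier age, and the choice of genes low at 13 DAP bears on the direction. The number called depended on single libraries and was 34 without BM replicate 1 at 9 DAP, 38 without BM replicate 3 at 11 DAP and 14 without MB replicate 1 at 9 DAP or MB replicate 2 at 11 DAP. In these fits, in that order, 2299, 2659, 1964 and 1951 of all genes were lower. Those higher numbered 2657, 3078, 2043 and 2007, of 22270 to 22503 tested. The log2 fold change was −1.32 ± 0.15 for TERT (GRMZM2G167338; edgeR adjusted p = 0.000123) and −1.52 ± 0.41 for In2-1 (GRMZM2G042639; adjusted p = 0.0136), a call lost in 1 alternative (highest adjusted p = 0.0747). The largest fall was that of GRMZM2G563190, −2.78 ± 0.57 (adjusted p = 0.0032), which had 0, 0.0675 and 0.153 CPM in MB and 0.228, 0.228 and 0.231 CPM in BM embryos at 11 DAP, against 1.69, 0.603 and 0.369 CPM in MB and 0.641, 0.707 and 2.34 CPM in BM embryos at 9 DAP. All libraries at 11 DAP lay under all libraries at 9 DAP, at very low levels.

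The reciprocal crosses were compared at each age with 3 libraries against 3. At 5 DAP in manual embryos the falling genes held 1.87, 1.55 and 1.85% of the counts in MB and 4.04, 3.93 and 4.17% in BM embryos, without overlap. All 150 were tested, and 120 were lower and 10 higher in MB, beside 14.4% of 22060 genes tested that were lower and 12.9% that were higher. The median log2 fold change of MB over BM was −1.29, against 0.01 over all genes. The rule asked for a mean of at least 10 CPM over these same libraries, and some genes met it through a single cross. How many did was not counted, so the count and the median are a description. Leaving out any library gave 123 to 130 calls, beside 2247 to 3571 of all genes lower and 1871 to 3387 higher. A single fit over all 48 libraries called 76, of which 71 were lower in MB and 5 higher, beside 835 genes lower and 711 higher of 25454 tested. For 121 genes all 3 MB libraries lay below all 3 BM libraries, and for 11 above. This was not counted over all gene models, so no share stands beside it. The MB mean at 5 DAP lay between the BM means at 5 and 7 DAP for 124 genes, under the BM mean at 7 DAP for 7 and over the BM mean at 5 DAP for 19. The genes were chosen as high at 5 DAP, and all 150 had a lower mean at 7 than at 5 DAP. A gene moderately lower in MB therefore mostly lands between these BM means. The count was not made over all gene models and does not bear on the age of the MB embryos.

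Lower in MB at 5 DAP were genes of several kinds. ESR3 (GRMZM2G140302) had 498, 445 and 480 CPM in MB and 2502, 2383 and 2323 CPM in BM embryos, a log2 fold change of −2.42 ± 0.06 (edgeR adjusted p = 1.28e-11), though in the fit over all 48 libraries its adjusted p was 0.0899. TERT (GRMZM2G167338) had 141, 164 and 147 CPM in MB and 271, 332 and 274 CPM in BM embryos (−1.04 ± 0.09, adjusted p = 3.11e-06). pht7 (GRMZM2G112377) had 38.4, 20.9 and 33.9 CPM in MB and 150, 123 and 206 CPM in BM embryos (−2.44 ± 0.30, adjusted p = 0.00346). The MB and BM libraries of these 3 genes did not overlap. GRMZM2G376674 showed a smaller difference, with 3529, 2596 and 3596 CPM in MB and 4126, 4056 and 4610 CPM in BM embryos (−0.48 ± 0.11, adjusted p = 0.0109), and 3 alternatives lost the call. wox9B (GRMZM2G031882) passed narrowly, with 94.4, 75.3 and 93.7 CPM in MB and 112, 88.8 and 132 CPM in BM embryos, which overlapped (−0.42 ± 0.13, adjusted p = 0.0433), and 7 alternatives lost that call (highest adjusted p = 0.522).

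The largest difference downwards was in GRMZM2G150091, with 4.41, 4.20 and 4.94 CPM in MB and 89.7, 80.7 and 80.5 CPM in BM embryos at 5 DAP (−4.28 ± 0.11, edgeR adjusted p = 1.58e-11), a call lost in the fit over all 48 libraries (adjusted p = 0.0638). Its MB libraries lay under the 10 CPM that the rule asked for in manual embryos at 5 DAP, so it met that condition through BM embryos. At 7 DAP it had 0.661, 0.269 and 14.2 CPM in MB and 25.9, 43.0 and 29.4 CPM in BM embryos. In LCM embryos at 5 DAP it had 0.185, 0.0858 and 98.1 CPM in MB and 83.5, 4.81 and 159 CPM in BM embryos. MB replicate 3 of the LCM group was thus as high as BM libraries, and MB replicate 3 at 7 DAP stood well above the other MB libraries.

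A few falling genes were far higher in MB. AC226235.2_FG001 had 78.7, 52.0 and 77.1 CPM in MB and 0.475, 0.831 and 0.466 CPM in BM embryos at 5 DAP, a log2 fold change of 6.80 ± 0.25 (edgeR adjusted p = 3.42e-10). GRMZM2G030571 had 103, 68.4 and 89.5 CPM in MB and 1.29, 1.08 and 0.854 CPM in BM embryos (6.23 ± 0.20, adjusted p = 1.04e-10). GRMZM2G123986 had 149, 104 and 124 CPM in MB and 4.75, 4.40 and 7.15 CPM in BM embryos (4.45 ± 0.18, adjusted p = 9.83e-09). For all 3 genes the mean that chose them came almost wholly from MB embryos.

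GRMZM2G123986 differed by as much at 7 DAP, with 81.6, 54.2 and 87.9 CPM in MB and 3.32, 4.09 and 2.10 CPM in BM embryos (4.48 ± 0.28, edgeR adjusted p = 0.000822). At 11 DAP it had 3.84, 6.35 and 8.58 CPM in MB and 2.05, 1.19 and 3.29 CPM in BM embryos (1.57 ± 0.38, adjusted p = 0.0171), a call that 5 alternatives lost. At 13 DAP the order was turned round, with 0.314, 0.360 and 0.309 CPM in MB and 6.92, 4.93 and 4.51 CPM in BM embryos (−3.94 ± 0.35, adjusted p = 1.38e-05). The rule ranked genes on these libraries and the gene met the 10 CPM condition through MB embryos, so this result is a description. Its BM libraries at 5 and 13 DAP overlapped, whereas MB libraries were far lower at 13 DAP. GRMZM2G030571 and AC226235.2_FG001 differed from GRMZM2G123986 at 7 DAP, where MB replicate 3 stood alone at 46.0 and 31.7 CPM over the other MB libraries. Myb36 (GRMZM2G056407) was higher in MB at 5 DAP by a small amount, with 77.1, 69.2 and 77.9 CPM in MB and 51.4, 43.9 and 46.9 CPM in BM embryos (0.57 ± 0.08, adjusted p = 0.000212), a call lost in the fit over all 48 libraries (adjusted p = 0.392).

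The crosses differed in fewer of the genes at 7 DAP. Of 144 tested, 33 were lower and 2 higher in MB, beside 4.59% of 21560 genes tested that were lower and 3.73% that were higher, with a median log2 fold change of −0.89 against 0.01 over all genes. MB replicate 3 decided this count, being more than 2 times as high as both other MB libraries for 67 of the 141 genes with 1 CPM in the group. Without it 110 falling genes were called, 106 of them lower, beside 1925 genes lower and 1567 higher of 21985 tested. Without MB replicates 1 or 2 there were 20 and 19, and without BM replicates 1, 2 or 3 there were 23, 10 and 23. Over all genes, in that order, 517, 448, 380, 230 and 637 were lower and 403, 330, 228, 189 and 421 higher. Between 21893 and 22114 genes were tested in these fits. In MB replicate 3 the 5 embryo-surrounding markers summed to 1912 CPM, against 285 and 273 CPM in MB replicates 1 and 2 and 1126, 848 and 1643 CPM in BM embryos, and their part in the result was not tested. HRGP (GRMZM2G168651) had 340, 272 and 393 CPM in MB and 625, 709 and 606 CPM in BM embryos (−1.01 ± 0.13, edgeR adjusted p = 0.00409), without overlap, a call lost in the fit over all 48 libraries (adjusted p = 0.191). asn3 (GRMZM2G053669) had 4.13, 3.83 and 7.88 CPM in MB and 25.1, 30.6 and 14.0 CPM in BM embryos (−2.18 ± 0.39, adjusted p = 0.027), also without overlap, and 7 alternatives lost the call (highest adjusted p = 0.169).

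At 9 DAP none of 96 falling genes tested differed between the crosses in edgeR's test, where 0.0145% of 20712 genes were called in each direction. At an unadjusted p under 0.05 in edgeR's test there were 17, beside 1633 of the 20712 genes. DESeq2 called 2, beside 70 genes higher and 58 lower of 20710 tested. The median log2 fold change was −0.05, against 0.00 over all genes. BM replicate 1 was more than 2 times lower than both other BM libraries for 51 of the 95 genes with 1 CPM in the group. Its 5 embryo-surrounding markers summed to 117 CPM, against 596 and 396 CPM in BM replicates 2 and 3 and 637, 644 and 916 CPM in MB embryos, and their part in the result was not tested.

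At 11 DAP 83 genes were tested and 4 were lower and 3 higher in MB, beside 7.42% of 21363 genes tested that were lower and 6.87% that were higher. These shares are near those over all genes. TERT (GRMZM2G167338) had 6.66, 6.42 and 7.28 CPM in MB and 12.4, 13.1 and 16.7 CPM in BM embryos, without overlap (−1.002 ± 0.18, edgeR adjusted p = 0.00361), and the fit over all 48 libraries lost the call (adjusted p = 0.0668). With all libraries the median log2 fold change was −0.44, against −0.01 over all genes, and single libraries turned the direction. Without BM replicate 1 there were 12 lower and 3 higher in MB, with a median of −0.68, whereas without BM replicate 3 there were 3 lower and 10 higher, with a median of 0.04. Over all genes tested, 907 of 21858 were lower and 1102 higher without BM replicate 1. Without BM replicate 3, 1917 of 21591 were lower and 1954 higher. Without BM replicate 2, MB replicate 2 or MB replicate 3 there were 3 calls each among the falling genes. Over all genes, in that order, 676, 428 and 743 were lower and 756, 428 and 827 higher, of 21673 to 21823 tested. The 5 embryo-surrounding markers summed to 477, 344 and 245 CPM in MB embryos and to 216, 299 and 797 CPM in BM replicates 1, 2 and 3, and their part in the result was not tested.

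At 13 DAP 64 genes were tested and 40 were lower and none higher in MB, beside 11.3% of 20461 genes tested that were lower and 15.2% that were higher. The median log2 fold change was −1.67, against −0.01 over all genes. Genes near 0 in MB passed the filter on low counts by their level in BM and the rule ranked genes on these libraries, so the count and the median are a description and no measure of all 150. Over all 150 genes 87 had every MB library below every BM library, and 1 above. No like count over all gene models was made, so these numbers have no share beside them. esr6 (GRMZM2G048353) had 0.628, 1.22 and 1.54 CPM in MB and 26.8, 42.6 and 35.4 CPM in BM embryos (−4.85 ± 0.28, edgeR adjusted p = 9.25e-06). GRMZM2G376674 had 5.26, 6.05 and 6.02 CPM in MB and 52.9, 57.7 and 38.5 CPM in BM embryos (−3.03 ± 0.17, adjusted p = 2.05e-06). wox9B (GRMZM2G031882) had 2.04, 2.52 and 2.16 CPM in MB and 8.53, 7.51 and 4.59 CPM in BM embryos (−1.54 ± 0.27, adjusted p = 0.00147), and in HRGP (GRMZM2G168651) the crosses overlapped, with 52.9, 91.0 and 49.5 CPM in MB and 82.3, 71.6 and 47.0 CPM in BM embryos.

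**Figure D4:**
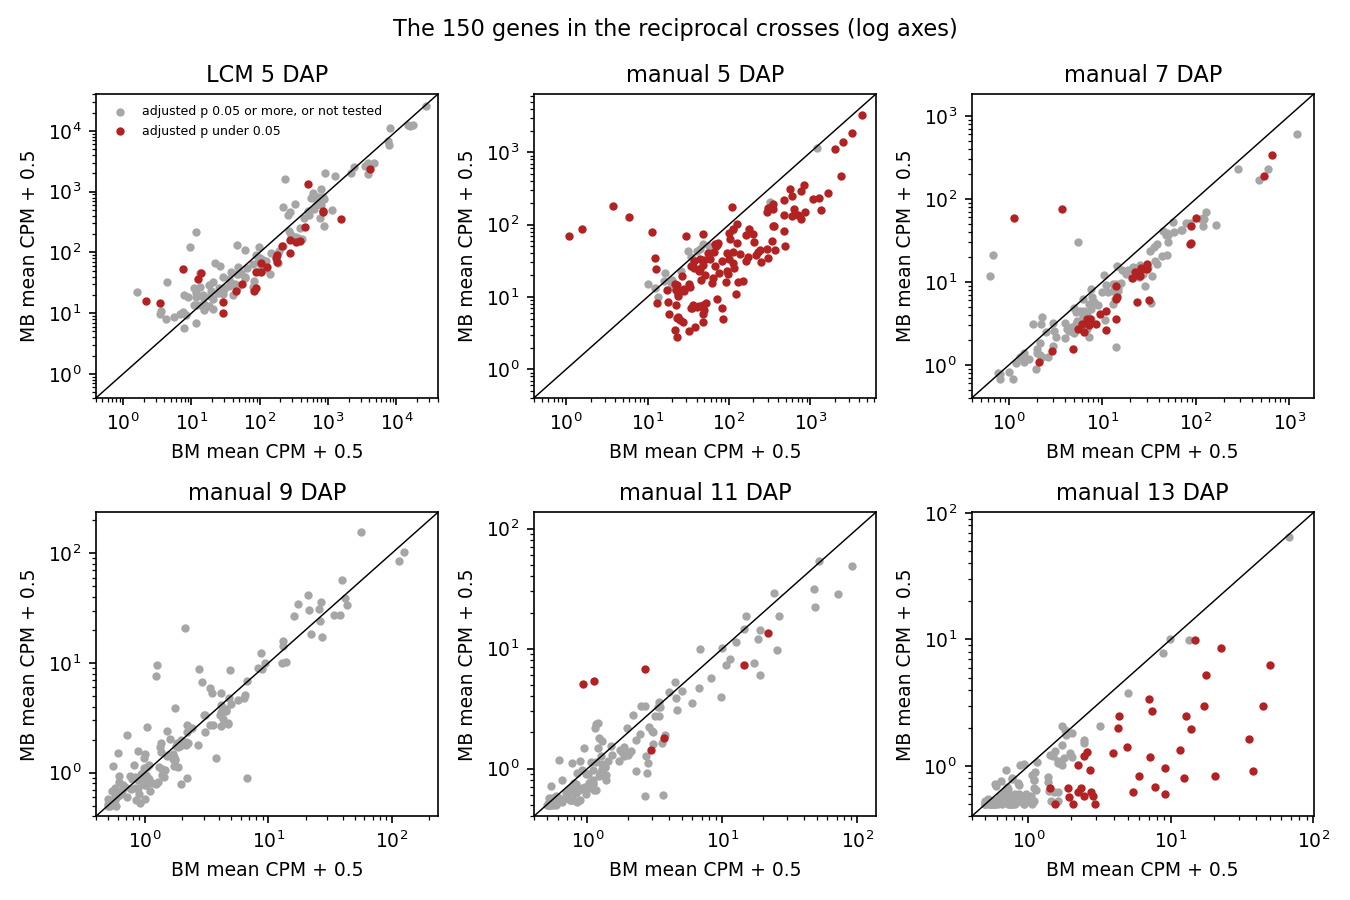
Mean level in MB against mean level in BM (CPM + 0.5, log axes, 3 libraries each) for the 150 falling genes, in LCM embryos at 5 DAP and in manual embryos at 5 to 13 DAP, with the line of equal levels. Red points had an edgeR adjusted p under 0.05; most points lie below the line in manual embryos at 5 DAP, where 120 genes were lower in MB, and around it at 9 DAP, where none was called, and at 13 DAP the red points lie below it.

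Several marker lists moved with the cross at 5 and 13 DAP. The 5 embryo-surrounding markers, of which ESR3 is itself a member, summed to 1781, 1723 and 1758 CPM in MB and 9575, 10020 and 8804 CPM in BM embryos at 5 DAP, and to 17.0, 14.0 and 24.6 CPM in MB and 270, 485 and 425 CPM in BM embryos at 13 DAP. The 13 transfer layer markers summed to 654, 663 and 625 CPM in MB and 4596, 4468 and 4056 CPM in BM embryos at 5 DAP, and to 29.5, 30.7 and 46.7 CPM in MB and 296, 540 and 454 CPM in BM embryos at 13 DAP. For both lists the MB libraries lay below the BM libraries at both ages. The embryo markers other than wox9B summed to 426, 350 and 383 CPM in MB and 288, 283 and 301 CPM in BM embryos at 5 DAP, and to 58.8, 69.8 and 62.9 CPM in MB and 137, 124 and 108 CPM in BM embryos at 13 DAP. They were thus higher in every MB library at 5 DAP and lower in every MB library at 13 DAP. The 4 aleurone markers had sums of 171, 181 and 182 CPM in MB and 117, 132 and 114 CPM in BM embryos at 5 DAP, and of 316, 377 and 345 CPM in MB and 454, 451 and 397 CPM in BM embryos at 13 DAP, with the same turn. The 16 starchy endosperm markers overlapped between the crosses at 5 DAP and summed to 568, 675 and 582 CPM in MB and 2142, 2791 and 1916 CPM in BM embryos at 13 DAP. Most of their sum at 5 DAP was pbf1 (GRMZM2G146267), with a mean of 91.9 CPM in manual embryos and 33.3 CPM in endosperm. The overlap at 5 DAP thus says little about the other starchy endosperm markers. The part of these markers in the differences of the falling genes was not tested.

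**Figure D5:**
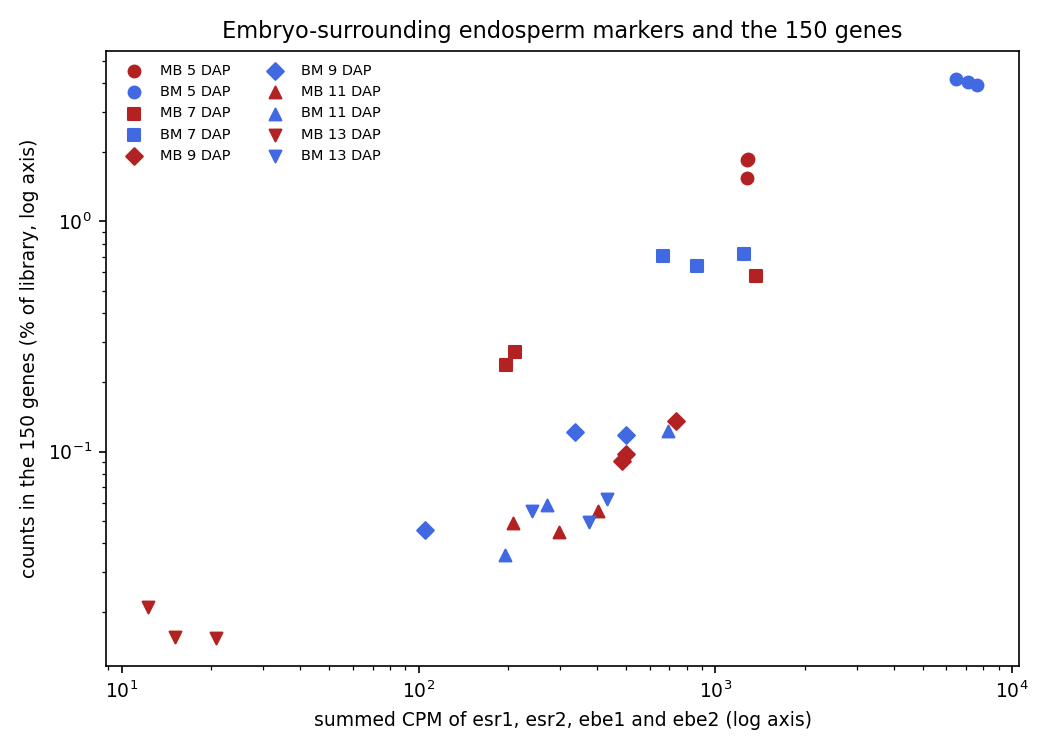
Share of counts in the 150 falling genes (log axis, %) against the summed level of the embryo-surrounding markers esr1, esr2, ebe1 and ebe2, which are not among them (CPM, log axis), for the libraries of manual embryos, with MB in red and BM in blue and a symbol for each age. MB libraries lie below BM libraries on both axes at 5 DAP and at 13 DAP, and at 7 DAP MB replicate 3 lies near the BM libraries.

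The change of the crosses with age was tested for 9 over 7 DAP. None of 144 genes passed in edgeR's test of the interaction, where 0.341% of 22316 genes were called higher and 0.358% lower. At an unadjusted p under 0.05 in edgeR's test there were 26, beside 2704 of the 22316 genes. DESeq2 called 6, beside 326 genes higher and 276 lower of 19712 tested. The median was 0.79, against −0.01 over all genes, and 121 of the 144 values were positive, the sign of a larger fall in BM. Positive values were not counted over all genes. The falling genes share the same libraries and none passed, so a difference between the crosses is not shown. Without BM replicate 1 at 9 DAP the median was 0.55 and 105 of 146 values were positive, and without MB replicate 3 at 7 DAP the median was 1.24. Without MB replicate 3 at 7 DAP 14 of the falling genes were called, beside 251 genes higher and 276 lower of 22685 tested.

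With all libraries the crosses were less far apart in LCM than in manual embryos at 5 DAP, and a single library weighed on this. The falling genes held 19.99, 10.6 and 8.83% of the counts in MB and 11.8, 16.5 and 17.0% in BM embryos, with overlap. All 150 were tested, and 23 were lower and 6 higher in MB, beside 3.82% of 18511 genes tested that were lower and 3.14% that were higher. The median log2 fold change was −0.44, against 0.02 over all genes. MB replicate 1 was more than 2 times as high as both other MB libraries for 49 genes. Without it 71 falling genes were called, beside 1064 genes lower and 756 higher of 19118 tested. Their median log2 fold change was then −1.01, with 122 of 150 values negative, against a median of −1.29 in manual embryos. Without MB replicates 2 or 3 there were 10 and 14 falling genes called, and without BM replicates 1, 2 or 3 there were 12, 17 and 14. Over all genes, in that order, 114, 231, 255, 301 and 341 were lower and 125, 157, 146, 206 and 206 higher. Between 19000 and 19170 genes were tested in these fits. In MB replicate 1 the embryo-surrounding markers summed to 24510 CPM, against 6797 and 6459 CPM in the other MB libraries and 2509, 5415 and 7173 CPM in BM embryos, and their part in the result was not tested. GRMZM2G150827 had 472, 237 and 364 CPM in MB and 1615, 1670 and 1388 CPM in BM embryos (−2.33 ± 0.30, edgeR adjusted p = 0.00437). GRMZM2G301089 had 17.2, 16.1 and 11.9 CPM in MB and 1.81, 2.54 and 0.558 CPM in BM embryos (2.96 ± 0.47, adjusted p = 0.00888). Neither gene overlapped between the crosses. All BM libraries of GRMZM2G301089 lay under the 5 CPM that the rule asked for in LCM embryos at 5 DAP. It met that condition through MB embryos, so its difference and p-value are a description.

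The cross differences of LCM and manual embryos were not the same for some genes. The difference between the LCM and the manual value of MB over BM at 5 DAP was tested for all 150 genes, and 18 were positive and 1 negative, beside 3.48% of 22660 genes tested that were positive and 2.3% that were negative. The number called was 37 and 40 without MB replicates 1 or 2 of the LCM embryos and 9 to 12 without any single manual library. Over all genes, 1132 were positive and 801 negative of 23417 without that MB replicate 1. Without MB replicate 2 they were 849 and 571 of 23442. In the fits without a manual library 253 to 398 were positive and 193 to 267 negative, of 23206 to 23287. ESR3 (GRMZM2G140302) had 3121, 932 and 890 CPM in MB and 150, 251 and 311 CPM in BM LCM embryos, the reverse of its order in manual embryos, and the difference was 5.05 ± 0.73 on the log2 scale (edgeR adjusted p = 0.00692). HRGP (GRMZM2G168651) had 1076, 1632 and 1292 CPM in MB and 530, 430 and 550 CPM in BM LCM embryos, against 1309, 877 and 1282 CPM in MB and 1193, 1001 and 1388 CPM in BM manual embryos, which overlapped (1.31 ± 0.24, adjusted p = 0.00814). In LCM embryos both genes were higher in every MB library.

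The limit of the set is gradual. The last genes inside were GRMZM2G038024, MADS67 (GRMZM2G147716) and GRMZM2G063679, with ratios of 17.5, 17.2 and 17.1, and the first outside were AUX9 (GRMZM2G048131), TE1 (GRMZM2G085113) and GRMZM2G066321, with ratios of 16.9, 16.9 and 16.8. TE1, an RNA-binding protein whose loss alters leaf initiation, averaged 15.8 and 22.2 CPM in LCM embryos at 3 and 5 DAP, 15.7 CPM in manual embryos at 5 DAP and 0.428 CPM at 13 DAP. With FPKM in place of CPM in the rule 115 of the 150 genes stayed, and with 2 in place of 0.5 CPM in the ratio 123 stayed.

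The members were chosen on 4 of the 8 sample kinds, so a likeness to their own mean profile was fixed in large part by the rule. On log2(mean CPM + 1) their Pearson correlation with that profile over the 8 kinds had a median of 0.959 and a lowest value of 0.486, and 119 of the 150 exceeded 0.9. Of 16582 genes compared, the genes outside the set closest to it were AC209819.3_FG003 (0.993, rank 181 by the rule), GRMZM2G111441 (0.993, rank 281) and GRMZM2G021439 (0.992, not past the conditions). GRMZM2G111441 averaged 20.6, 24.5 and 17.5 CPM in LCM embryos at 3 and 5 DAP and manual embryos at 5 DAP and 2.63 CPM at 13 DAP, so a like shape went with a shallower fall. These correlations rest on 8 means of libraries that all genes share.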

How the data were processed

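Polyadenylated RNA libraries were sequenced on an Illumina HiSeq2500 for all 48 samples, per the labels' protocols. The authors deposited whole-number counts per gene model and FPKM per gene model for each library, per the file headers. The submitters' processing notes name FastQC, TopHat, HTSeq and Cufflinks 2.2.1. No source used here gives the genome build, the annotation or whether counting used strand, so reads of opposite strands cannot be told apart. FPKM was used to compare genes, as an alternative in the choice of genes, and beside CPM for 2 genes.

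CPM is the count over the library total (7130090 to 21698127). Reads are not independent molecules, so limits for 0 reads (3 counts over a group) cover counting error only. Counts of all gene models were tested, two-sided, with edgeR 4.0.16 in R 4.3.3 (filterByExpr, TMM, glmQLFit robust, glmQLFTest). The threshold was an adjusted p (Benjamini-Hochberg, over all genes tested) of under 0.05. The SE is the log2 fold change over the root of F. Age comparisons used 12 libraries with cross as a term, and crosses 3 against 3. p-values measure the spread between pools of embryos. The pipeline was tested on simulated data.

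The falling genes, gene lists and tests were chosen with earlier results of these data known. Tests of the crosses at 13 DAP, in LCM embryos and by collection were added after seeing the data, as was leaving out 2 LCM libraries. Named genes were the 20 highest ranks, all with an informative symbol, the 5 largest called changes each way, 3 on either side of the rank limit and the 3 highest and lowest in LCM embryos at 3 DAP; a selection stands in the text. Gene names came from a RefSeq table of the assembly Zm-B73-REFERENCE-NAM-5.0. Alternatives were RLE size factors, DESeq2 1.42.0, no filter on low counts, a single fit over all 48 libraries, a block for the replicate number, leaving out each library, and for the choice of genes FPKM or 2 CPM in the ratio. No sequences or coordinates are reported.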

Additional observations from a re-analysis of the deposited data

Results flagged for a closer look

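At 5 DAP the difference between the crosses was not the same in LCM and in manual embryos for 11 of the named genes, by edgeR's test of the difference (the log2 ratio of MB over BM in LCM embryos minus that in manual embryos). It was 5.05 for ESR3 (GRMZM2G140302), 3.80 for GRMZM2G460869, 2.97 for GRMZM5G815477, 2.94 for GRMZM2G160924 and 2.70 for GRMZM2G052100. It was 1.51 for GRMZM2G021427, 1.43 for asn3 (GRMZM2G053669), 1.40 for GRMZM2G081214, 1.31 for HRGP (GRMZM2G168651) and 1.15 for GRMZM2G025133. The difference was −0.78 for GRMZM2G336448. All but ESR3 and GRMZM2G052100 lost the call in 1 or more alternatives.

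GRMZM5G815477 had 19710, 6944 and 7229 CPM in MB and 3833, 8534 and 12130 CPM in BM LCM embryos, against 266, 283 and 273 CPM in MB and 1695, 1824 and 1440 CPM in BM manual embryos. GRMZM2G052100 had 50.9, 34.0 and 72.2 CPM in MB and 10.3, 4.09 and 6.70 CPM in BM LCM embryos, against 48.9, 37.7 and 42.2 CPM in MB and 43.2, 30.2 and 47.0 CPM in BM manual embryos. The crosses did not overlap for the first gene in manual embryos and for the second in LCM embryos, and overlapped in the other collection.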

How the results depend on the processing

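Of 161 calls among 398 named gene results in 10 comparisons, 86 held under all alternatives. The number of falling genes called ranged, over fits without 1 library, from 110 to 131 for 9 over 7 DAP and 14 to 38 for 11 over 9 DAP. For MB over BM it ranged from 123 to 130 (5 DAP), 10 to 110 (7 DAP), 0 to 1 (9 DAP), 3 to 15 (11 DAP) and 34 to 46 (13 DAP). It ranged from 10 to 71 for LCM embryos at 5 DAP, 9 to 40 for cross by collection and 0 to 14 for cross by age. The numbers called over all genes moved with the library left out as well. For 9 over 7 DAP 4170 to 4971 of all genes were lower and 3530 to 4424 higher. For MB over BM at 13 DAP these were 1202 to 2221 and 1982 to 3048. A single fit over all 48 libraries called 76, 12, 1, 3 and 28 on days 5, 7, 9, 11 and 13. Of all 25454 genes that fit called 711 higher and 835 lower at 5 DAP and 128 and 113 at 7 DAP. At 9 DAP these were 5 and 2, at 11 DAP 252 and 219, and at 13 DAP 231 and 558. DESeq2 called 60 falling genes at 7 DAP, 2 at 9 DAP, 6 for cross by age, 55 in LCM embryos and 42 for cross by collection. Of all genes it called 1002 higher and 1302 lower of 21548 at 7 DAP. In LCM embryos these were 1046 and 1275 of 18140, and for cross by collection 1429 and 1300 of 21318. Without a filter on low counts 1 falling gene was called at 9 DAP and 11 at 11 DAP. Of all genes 31 were then higher and 19 lower of 30602 at 9 DAP, and 1851 and 1764 of 31084 at 11 DAP.

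Replicate numbers showed no regular pairing of the samples: correlations of same-numbered deviations ran from −0.319 to 0.462, and in no comparison were all over 0.1. Single pairs were higher, at 0.447 and 0.361 for BM replicates 1 and 3 at 11 and 9 DAP. MB and BM replicate 3 at 9 DAP gave 0.462. These values cannot settle whether some same-numbered libraries were handled together. With the replicate block 55 falling genes were called at 7 DAP, 3 at 9 DAP, 30 for 11 over 9 DAP and 1 for cross by age. Of all genes 1008 were then higher and 1193 lower of 21560 at 7 DAP. At 9 DAP these were 57 and 41 of 20712, for 11 over 9 DAP 3188 and 3012 of 21990, and for cross by age 53 and 77 of 22316.

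A change of sign with a call appeared when 1 library was left out. The log2 fold change of MB over BM for GRMZM2G006601 at 7 DAP was −1.935 (edgeR adjusted p = 0.0269) without MB replicate 3, and ranged from −1.935 to 0.676 over such fits, against 0.16 with all libraries. Without BM replicate 3 at 11 DAP, GRMZM2G097719 was at 1.88 (adjusted p = 0.0155; −0.684 to 1.88) and GRMZM2G416632 at 1.23 (adjusted p = 0.0478; −0.402 to 1.23), against −0.21 and −0.0049 with all libraries. GRMZM2G038024 in LCM embryos was at −1.497 (adjusted p = 0.0237; −1.497 to 0.698) without MB replicate 1, against 0.26 with all libraries. The cause was not tested. Many genes lay under 1 CPM from 9 DAP on, where depth limits any test.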

Other observations

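As sums, markers of later embryo and of storage tissue rose in manual embryos from 5 to 11 DAP, where the falling genes fell. The 10 embryo maturation markers (oleosins, globulins and late regulators) summed to 222 CPM on average in manual embryos at 5 DAP, 297 CPM at 7 DAP, 1054 CPM at 9 DAP, 3027 CPM at 11 DAP and 3226 CPM at 13 DAP. The rise lay mainly in ole1, glb1, glb2 and ole17. vp1, most of the sum at 5 DAP, went from 186 CPM then to 139 CPM at 13 DAP. rab17 and EMB5 were low, at 1.68 and 2.28 CPM at 13 DAP. In LCM embryos the list summed to 361 CPM at 3 DAP (106 to 1431 CPM over libraries) and 324 CPM at 5 DAP. The 16 starchy endosperm markers summed to 101, 170, 398, 2455 and 1446 CPM in manual embryos from 5 to 13 DAP, and the 4 aleurone markers to 149, 224, 368, 429 and 390 CPM. In the starchy endosperm list pbf1 (GRMZM2G146267) was most of the sum at 5 DAP, with 91.9 CPM, and averaged 116 CPM at 13 DAP.

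Counts and FPKM of a gene did not always move together. GRMZM2G081794 had medians of 3134 CPM in LCM embryos and 409 CPM in manual embryos at 5 DAP, but 55.4 FPKM in LCM embryos and 267 FPKM in manual embryos. GRMZM2G536120 had 79.5 CPM in LCM embryos and 132 CPM in manual embryos, with 6.58 FPKM in LCM embryos and 76.8 FPKM in manual embryos. In endosperm 15 values of the falling genes were listed at 0 FPKM although the gene had 10 or more reads in that library.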
